A study of Mus musculus with 8 samples.

Results

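Cholesterol is made in every nucleated cell from acetyl-CoA through mevalonate, squalene and lanosterol, and the genes of this route are switched on together by the transcription factor encoded by Srebf2 when membranes are short of sterol. When sterol is plentiful, its oxidised derivatives activate the nuclear receptor LXR alpha, encoded by Nr1h3, which is known to raise genes that export cholesterol and limit its uptake. In monocytes and macrophages this balance is best known from foam cell formation in atherosclerosis. The genes described here are 32 members of this system, chosen by name with earlier results of these data known. They are 18 synthesis enzymes, 5 regulators, 3 genes of sterol transport, storage and lipoprotein uptake, and 6 genes of LXR alpha and cholesterol efflux. The monocytes were sorted from blood as Gr1lo (Ly-6clo) and Gr1hi (Ly-6chi) cells. The mice were C57Bl/6 animals of 12 weeks, with no treatment named for either subset. Gr1lo cells correspond to the nonclassical monocytes that patrol vessels, and Gr1hi cells to the classical monocytes that enter inflamed tissue. Each subset had 4 samples, 1 per sort, and every sort drew on leukocytes pooled from 5 mice, so no value belongs to a single animal. All RNA went through an in vitro transcription extended to 64 h from 4 h before hybridisation to 1 Affymetrix array a sample.

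A gene was included if the platform annotation of a probe set gave exactly its symbol and no other. This found 61 probe sets for 30 of the 32 genes, among 45037 probe sets and 18194 genes in all. Acat2 and Soat1 matched no probe set, so their expression was not analysed here. A probe set was tested if it exceeded the median of the table (log2 6.36) in at least 4 of the 8 arrays, which 48 of the 61 did. Tm7sf2, a sterol reductase, had its single probe set below this limit. The other 29 genes were each represented by their brightest probe set, and all 29 stood above the limit in all 8 arrays, so none passed through 1 subset alone. Values are log2 intensities, and differences are Gr1lo minus Gr1hi on that scale. A gene was called when limma gave a Benjamini-Hochberg adjusted p under 0.05 over all 22831 tested probe sets.

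The subset labels fit the arrays. A probe set shared by the Ly6c genes, which encode the sorted epitope, averaged 9.88 in Gr1lo and 13.57 in Gr1hi arrays. The summed intensity of 6 monocyte markers overlapped between subsets, at 44155 to 45213 in Gr1lo and 43886 to 45477 in Gr1hi. Single markers still differed, with 3 of the 6 called higher in Gr1lo and 2 higher in Gr1hi, among them Cd14 at 2.17-fold. Beside the small counts of each marker list, 14.1% of all tested genes were called higher in Gr1lo and 18.5% higher in Gr1hi. Sums for several other blood cells moved with the subset. Natural killer cell markers summed to 932 to 1169 in Gr1lo and 630 to 772 in Gr1hi, with 2 of 4 tested called higher in Gr1lo. Neutrophil markers summed to 729 to 1032 in Gr1lo and 4558 to 5009 in Gr1hi, with 4 of 9 called higher in Gr1hi. Most of the Gr1hi sum came from Cd177, which averaged log2 6.56 in Gr1lo and 11.27 in Gr1hi, and Mmp8, at 6.28 in Gr1lo and 10.40 in Gr1hi. Mpo and S100a8 were the other 2 called, and the granule genes Elane, Ngp, Ltf and Camp were not. B cell markers summed to 526 to 831 in Gr1lo and 730 to 1173 in Gr1hi, with 2 of 5 called higher in Gr1hi. Dendritic cell markers summed to 1319 to 1817 in Gr1lo and 1089 to 1248 in Gr1hi, with 1 of 4 called in each direction. T cell, platelet and red cell markers had none of 5, 6 and 2 called. Platelet sums ran from 2217 to 5547 in Gr1lo and from 1896 to 4369 in Gr1hi, and red cell sums from 909 to 4424 in Gr1lo and from 840 to 2948 in Gr1hi. The part of these cells in the sterol results was not tested.

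The sterol genes leaned toward Gr1lo monocytes, most evenly among the LXR and efflux genes. All 6 genes of LXR alpha and cholesterol efflux were called higher in Gr1lo. Of all tested genes, 14.1% were called higher in Gr1lo and 18.5% higher in Gr1hi. Apoe, an apolipoprotein of the particles that carry exported cholesterol, was 2.09-fold higher in Gr1lo and Nr1h3 itself 1.75-fold higher. Srebf2, the master activator of cholesterol synthesis, was 1.45-fold higher and its escort protein Scap 1.31-fold higher. Of 16 tested synthesis enzymes, 6 were called higher in Gr1lo, led by squalene epoxidase (Sqle) at 1.76-fold, and 2, Mvd and Ebp, were called higher in Gr1hi. In RNA from sorted pools, more cells of a type and more RNA per cell cannot be told apart.

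Over the 29 tested genes, 15 were called higher in Gr1lo (51.7%) and 2 higher in Gr1hi (6.90%). Among all 11546 tested genes, 14.1% were called higher in Gr1lo and 18.5% higher in Gr1hi, 32.5% in either direction. The median difference was 0.34 over the sterol genes and -0.01 over all genes. Only Apoe passed 2-fold, where 3.88% of all genes were called at 2-fold or more. Of the 48 tested sterol probe sets, 25 were called higher in Gr1lo and 3 higher in Gr1hi, where 31.1% of all probe sets were called (15.2% higher in Gr1lo, 15.9% higher in Gr1hi). The 8 values did not overlap between subsets for 13 sterol genes toward Gr1lo and 2 toward Gr1hi, where 33.9% of all genes did not overlap in either direction. Of 13 sterol genes with several tested probe sets, 11 had all of them on 1 side of 0, and Mvk and Fdft1, neither of them called, had both signs.

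**Figure D1:**
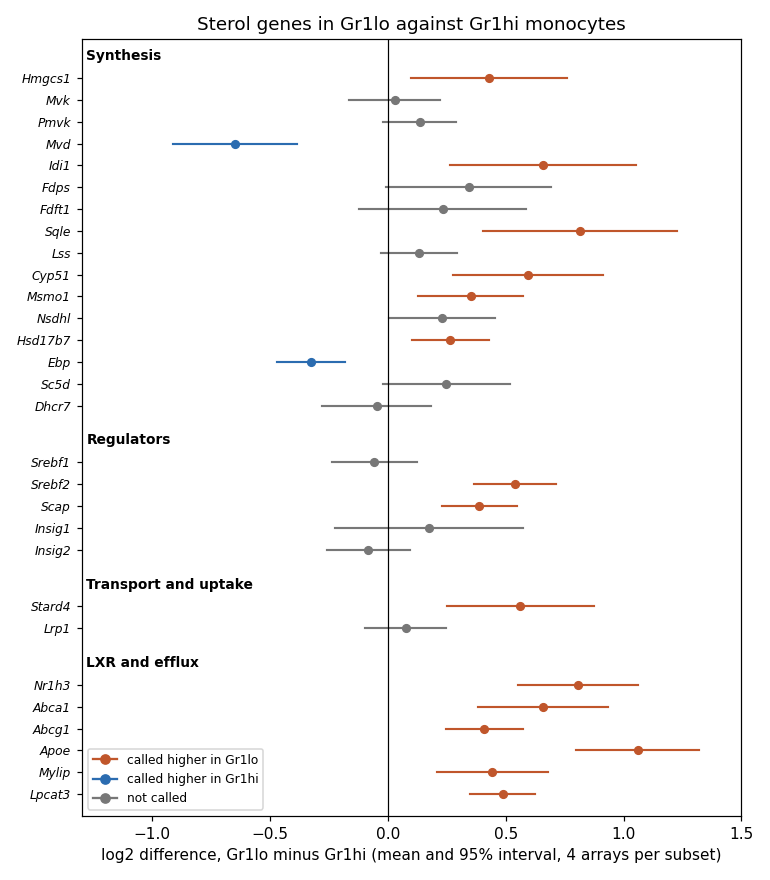
Log2 difference, Gr1lo minus Gr1hi, for the 29 tested sterol genes, with the mean as a point and the 95% interval as a line (limma, 4 arrays per subset), grouped by role. All 6 LXR and efflux genes lie right of 0, while Mvd and Ebp are the synthesis enzymes called left of 0.

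The regulators differed from each other. Srebf2 encodes the factor that drives the synthesis genes, and its intensities were 9.12, 9.20, 8.92 and 8.94 in Gr1lo arrays, against 8.61, 8.49, 8.42 and 8.51 in Gr1hi arrays. All 4 Gr1lo arrays stood above all 4 Gr1hi arrays. The difference was 0.54 (95% interval 0.37 to 0.71, limma adjusted p = 0.000277), and a second probe set gave 0.81. Scap, which carries the precursor of that factor from the endoplasmic reticulum to the Golgi, read 8.10, 8.38, 8.30 and 8.35 in Gr1lo arrays and 7.96, 7.87, 7.84 and 7.92 in Gr1hi arrays. Again no value overlapped, with the first Gr1lo array closest to the Gr1hi range. Scap differed by 0.39 (SE 0.07, adjusted p = 0.00157).

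The other 3 regulators were not called. Srebf1, whose product chiefly drives fatty acid synthesis and which is itself a known LXR target, averaged 8.94 ± 0.05 in Gr1lo and 8.99 ± 0.16 in Gr1hi (SD, n = 4 each). Its difference of -0.06 had a 95% interval of -0.24 to 0.12, which leaves out a change of the size seen for Srebf2. Insig1 encodes a protein that retains the Scap complex in the endoplasmic reticulum and is a known target of the synthesis factor. It read 7.83, 8.07, 7.69 and 7.43 in Gr1lo arrays and 7.96, 7.81, 7.07 and 7.48 in Gr1hi arrays. The ranges overlapped widely, and the interval of the difference (-0.22 to 0.57) spanned 0. Insig2, its relative that does not depend on the synthesis factor in the same way, averaged 8.01 ± 0.07 in Gr1lo and 8.09 ± 0.15 in Gr1hi (SD, n = 4 each), and none of its 3 probe sets was called.

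**Figure D2:**
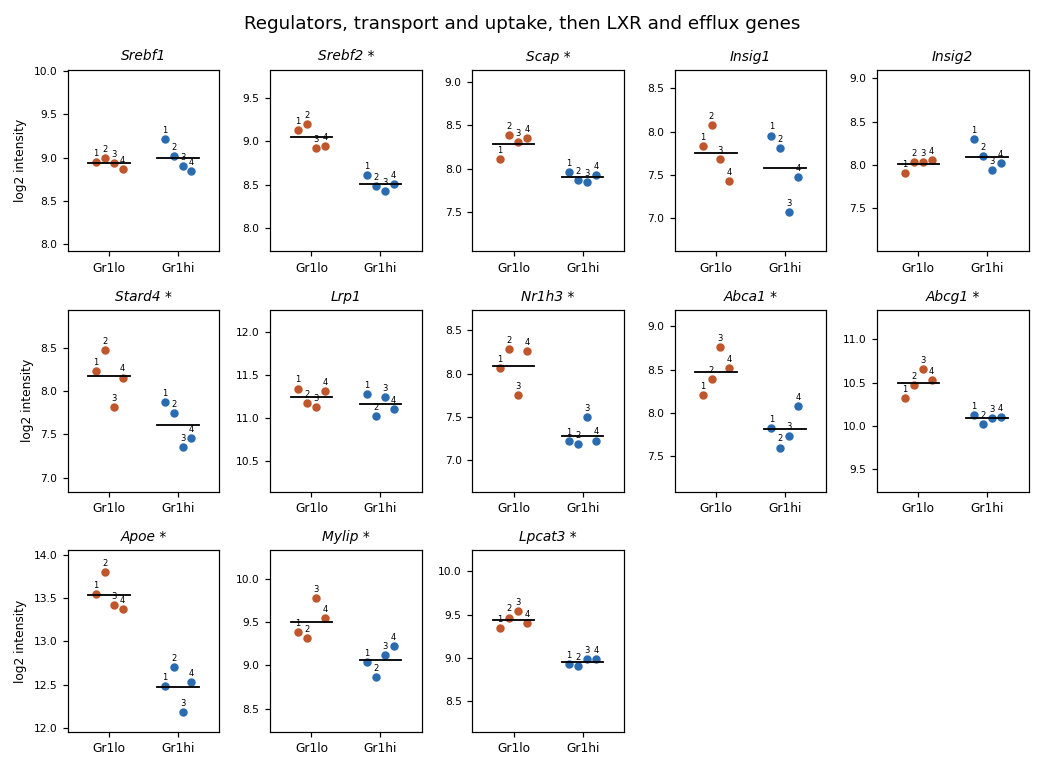
Log2 intensity of regulators, transport and uptake genes and LXR and efflux genes in each array (points, numbered by replicate) with the subset mean (line). Every panel spans the same log2 range, and an asterisk marks a called gene. For Srebf2, Scap and the 6 genes from Nr1h3 to Lpcat3 the Gr1lo points all lie above the Gr1hi points.

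The synthesis enzymes did not all go 1 way. Of the 16 tested, 6 were called higher in Gr1lo (Hmgcs1, Idi1, Sqle, Cyp51, Msmo1 and Hsd17b7), 2 were called higher in Gr1hi, and 8 were not called. The shares were 37.5% higher in Gr1lo and 12.5% higher in Gr1hi, where 14.1% and 18.5% of all genes were called. The median difference over the 16 was 0.24, and 13 of 16 were positive. The count rested partly on single arrays: leaving out the second Gr1lo array left 3 called higher in Gr1lo, and leaving out both arrays numbered 1 also left 3. Fewer probe sets were called in all with these arrays left out, 6417 and 5994 against 7108. Without the third Gr1lo array 7 enzymes were called higher in Gr1lo, and with the replicate number as a block 9. Sqle, Idi1 and Cyp51 were called in Gr1lo under each of these.

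Upstream of squalene the first called gene was Hmgcs1, the cytosolic HMG-CoA synthase. It read 10.31, 10.79, 10.19 and 10.29 in Gr1lo arrays, against 10.17, 10.19, 9.60 and 9.89 in Gr1hi arrays. The subsets touched at the third Gr1lo and second Gr1hi arrays. Its brightest probe set differed by 0.43 and passed only just (adjusted p = 0.0496, and 0.0035 to 0.13 over the other settings), while its other 3 tested probe sets gave 0.41 to 0.48 with adjusted p = 0.0095 to 0.034. Leaving out any one of Gr1lo arrays 1, 2 or 4 or Gr1hi arrays 3 or 4 ended its call (adjusted p = 0.067 to 0.13). Idi1 makes the active isoprene unit dimethylallyl diphosphate, and its values were 9.49, 9.81, 9.15 and 9.17 in Gr1lo arrays and 9.05, 9.03, 8.33 and 8.59 in Gr1hi arrays. They did not overlap, and the lowest Gr1lo array lay close above the highest Gr1hi array. The difference was 0.66 (SE 0.18, adjusted p = 0.0155), and a second Idi1 probe set gave 0.81.

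Mevalonate diphosphate decarboxylase, Mvd, acts in the same stretch and went the opposite way. It read 7.98, 7.98, 7.46 and 7.87 in Gr1lo arrays, against 8.64, 8.52, 8.47 and 8.26 in Gr1hi arrays. All Gr1lo arrays were below all Gr1hi arrays, with a difference of -0.65 (SE 0.12, adjusted p = 0.0014). Its second probe set gave -0.49 (adjusted p = 0.016). The kinases Mvk and Pmvk, which phosphorylate mevalonate just before this step, differed by 0.03 and 0.14 and were not called. Farnesyl diphosphate synthase, Fdps, averaged 9.26 ± 0.34 in Gr1lo and 8.91 ± 0.23 in Gr1hi (SD, n = 4 each), and squalene synthase, Fdft1, 8.43 ± 0.35 in Gr1lo and 8.19 ± 0.24 in Gr1hi. Neither was called, with intervals of -0.01 to 0.69 for Fdps and -0.12 to 0.59 for Fdft1. Fdps was called without the third Gr1lo array, at 0.49 (adjusted p = 0.016).

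From squalene onward the enzymes that add and remove groups on the sterol ring followed. Squalene epoxidase, Sqle, known as a control point of the pathway, read 8.70, 9.05, 8.46 and 8.48 in Gr1lo arrays, against 8.20, 8.17, 7.33 and 7.73 in Gr1hi arrays. It had the largest difference of the tested synthesis enzymes, at 0.82 (95% interval 0.40 to 1.23, limma adjusted p = 0.00575). The lowest Gr1lo array was above the highest Gr1hi array, but Gr1hi arrays spread over almost a whole log2 unit. Lanosterol synthase, Lss, which closes the ring, differed by 0.13 and was not called. Cyp51, the lanosterol demethylase, read 8.41, 8.72, 8.05 and 8.25 in Gr1lo arrays and 7.91, 8.00, 7.47 and 7.68 in Gr1hi arrays. It too did not overlap, differed by 0.60 (SE 0.14, adjusted p = 0.00799), and its second tested probe set gave 0.54. Msmo1, a methylsterol oxidase, averaged 9.96 ± 0.17 in Gr1lo and 9.61 ± 0.16 in Gr1hi, and Hsd17b7, a sterol ketone reductase, 7.07 ± 0.09 in Gr1lo and 6.80 ± 0.11 in Gr1hi (SD, n = 4 each). Both were called at adjusted p = 0.020 and 0.018, by differences of 0.35 and 0.26. A second Hsd17b7 probe set, at 7.06 in Gr1lo and 6.71 in Gr1hi, overlapped and was not called (limma adjusted p = 0.125). Msmo1 lost its call without the first or second Gr1lo array (adjusted p = 0.052 and 0.059), and Hsd17b7 without Gr1lo array 2 or Gr1hi array 3 (adjusted p = 0.052 and 0.051).

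Later steps included the second enzyme called higher in Gr1hi. Ebp, the isomerase that moves a ring double bond, read 9.60, 9.73, 9.57 and 9.61 in Gr1lo arrays, against 10.05, 9.97, 9.92 and 9.88 in Gr1hi arrays. The subsets did not overlap and both were tight, and the difference was -0.33 (SE 0.07, adjusted p = 0.00234). Nsdhl, which removes a carboxyl group from the ring, differed by 0.23 (interval 0.00 to 0.46), Sc5d, a desaturase, by 0.25 and Dhcr7, the last reductase on the route to cholesterol, by -0.05, and none was called. Tm7sf2, below the limit for testing, read 6.15, 6.27, 6.12 and 6.09 in Gr1lo arrays and 6.51, 6.72, 6.42 and 6.31 in Gr1hi arrays. It was dim throughout, with 3 arrays above the limit, all of them Gr1hi, and its subsets did not overlap. With no filter on dim probe sets Tm7sf2 was called higher in Gr1hi, at -0.33 (limma adjusted p = 0.020).

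**Figure D3:**
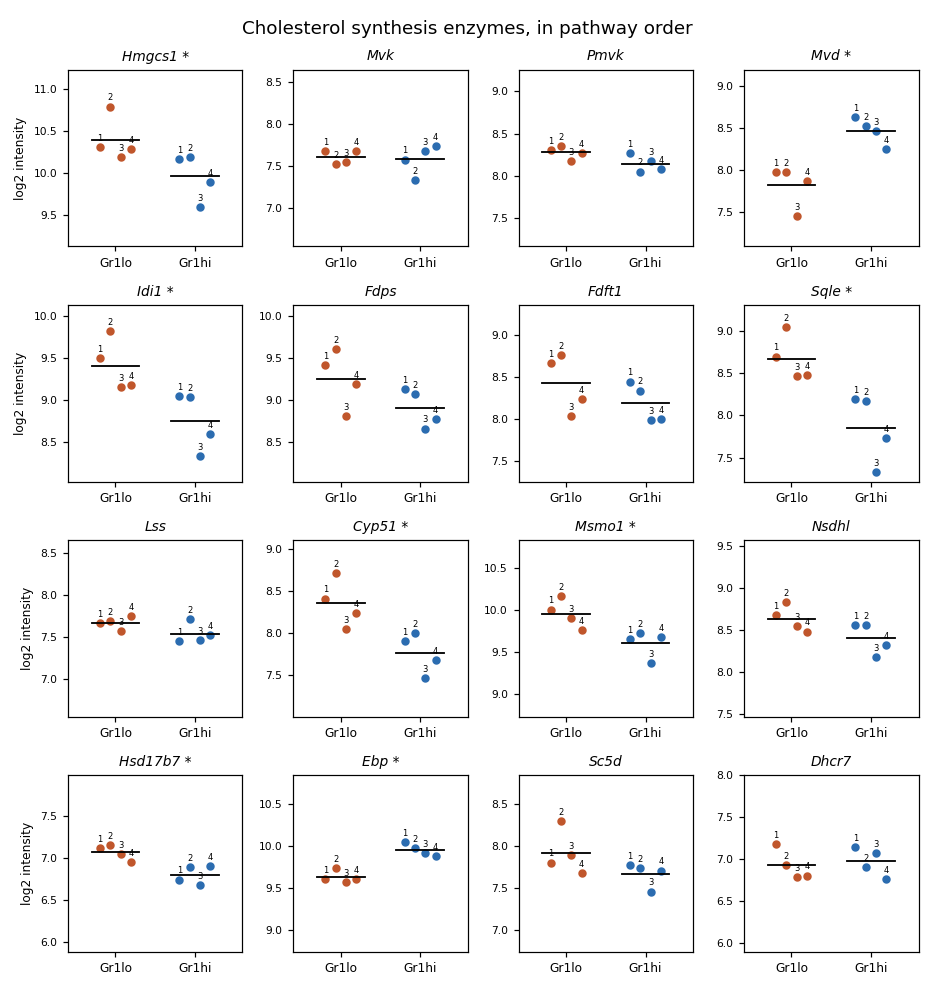
Log2 intensity of the 16 tested synthesis enzymes in each array (points, numbered by replicate), with subset means as lines, in the order of the pathway. Panels share 1 span on the log2 scale and asterisks mark called genes. In Idi1, Sqle and Cyp51 the second Gr1lo array is the highest point and the third Gr1hi array the lowest.

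Several sterol genes also varied between sorts of the same subset. The median within-subset SD, pooled over both subsets, was 0.19 for the 16 synthesis enzymes, 0.19 for the 6 LXR and efflux genes and 0.11 for all tested genes. Among the enzymes it was highest for Sqle (0.35), Idi1 (0.33), Fdft1 (0.30), Fdps (0.29), Hmgcs1 (0.27) and Cyp51 (0.26), each above at least 97.7% of all genes. Insig1 (0.34) and Stard4 (0.26), 2 further known targets of the synthesis factor, were as variable, while Srebf2 itself (0.11) and Scap (0.10) were near the median of all genes. Of the LXR and efflux genes, Abca1 (0.22), Apoe (0.21) and Nr1h3 (0.20) lay above at least 93.3% of all genes. Lpcat3 (0.07) was below the median of all genes. Within Gr1lo, the second array was the highest for 12 of 16 enzymes (37.1% of all genes) and the third the lowest for 11 (28.6% of all genes). Within Gr1hi, the first array was the highest for 9 of 16 (37.3% of all genes) and the third the lowest for 10 (30.4% of all genes).

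Averaged as deviations from each gene's mean over 8 arrays, the synthesis enzymes stood at 0.17, 0.32, -0.07 and 0.01 in Gr1lo arrays, against 0.03, -0.0048, -0.28 and -0.17 in Gr1hi arrays. Gr1lo arrays 3 and 4 thus lay within the range of the Gr1hi arrays, though at each replicate number the Gr1lo average was above the Gr1hi average. The LXR and efflux genes averaged 0.21, 0.35, 0.38 and 0.34 in Gr1lo arrays and -0.33, -0.39, -0.33 and -0.24 in Gr1hi arrays, with a wide gap between subsets. In the same order of arrays, platelet marker sums were 5547, 3249, 2217 and 3658 in Gr1lo and 4369, 2606, 2818 and 1896 in Gr1hi. Red cell marker sums were 4424, 1829, 909 and 2438 in Gr1lo and 2948, 1482, 1504 and 840 in Gr1hi. Their part in the spread of the sterol genes was not tested.

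**Figure D4:**
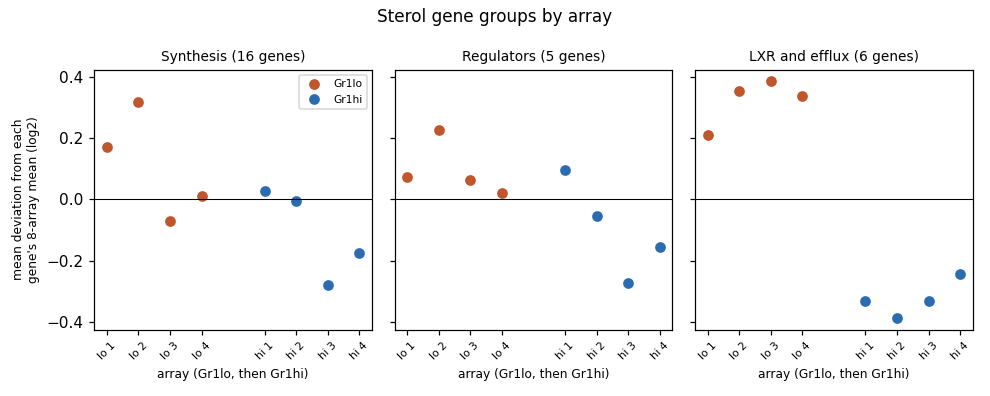
Mean deviation from each gene's 8-array mean (log2) for 16 synthesis enzymes, 5 regulators and 6 LXR and efflux genes, with 1 point per array, Gr1lo arrays left and Gr1hi arrays right in each panel. The LXR and efflux genes leave a gap between 0.21, the lowest Gr1lo array, and -0.24, the highest Gr1hi array. The synthesis averages of the subsets overlap, with Gr1lo above Gr1hi at each replicate number.

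Promoter sequences from RefSeq (GRCm38.p6) are shown for synthesis genes that moved in opposite directions, because known binding sites of the synthesis factor lie near those of its partner NF-Y, which reads CCAAT. Of the 32 members, 27 had a window in the table of promoters, and the 250 bases before each start were searched on both strands for CCAAT, for the sterol response core TCACCCCAC and for the E-box CACGTG. None of the 3 motifs contains another. The CCAAT letters were found for 14 of 15 synthesis genes with a window (93.3%), for 2 of 5 LXR and efflux genes (40%) and for 37.5% of 27025 genes. A gene with several starts counts if any window holds the letters. The core TCACCCCAC was found in Hmgcs1 alone of the 27, and in 0.555% of all genes. Only these exact letters were searched, so a sterol response site spelled otherwise would be missed. The E-box was found in 6 of the 27 (22.2%) and in 6.86% of all genes. Acat2 was the synthesis gene without CCAAT, and both enzymes higher in Gr1hi, Mvd and Ebp, hold it like those higher in Gr1lo that have a window. The windows of Hmgcs1 at chr13:119690101-119690350 (plus strand), Idi1 at chr13:8885356-8885605 (plus strand), Cyp51 at chr5:4104698-4104947 (minus strand) and Mvd at chr8:122443423-122443672 (minus strand) are given 5′ to 3′, with matches in capitals (ATTGG is CCAAT on the other strand).
Hmgcs1: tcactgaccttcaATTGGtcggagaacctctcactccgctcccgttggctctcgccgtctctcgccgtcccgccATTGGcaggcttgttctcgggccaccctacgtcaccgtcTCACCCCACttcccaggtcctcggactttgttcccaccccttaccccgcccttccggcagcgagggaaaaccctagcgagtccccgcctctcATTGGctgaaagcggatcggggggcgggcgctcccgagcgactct
Idi1: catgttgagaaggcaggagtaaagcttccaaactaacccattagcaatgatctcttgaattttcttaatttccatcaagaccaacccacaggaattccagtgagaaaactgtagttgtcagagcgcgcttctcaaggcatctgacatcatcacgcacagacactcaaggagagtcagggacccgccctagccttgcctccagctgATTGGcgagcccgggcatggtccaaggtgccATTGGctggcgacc
Cyp51: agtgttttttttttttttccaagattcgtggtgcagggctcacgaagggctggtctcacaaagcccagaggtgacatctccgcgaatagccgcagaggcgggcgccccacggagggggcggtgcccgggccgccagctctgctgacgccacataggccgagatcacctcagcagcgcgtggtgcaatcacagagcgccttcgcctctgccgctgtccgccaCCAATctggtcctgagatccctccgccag
Mvd: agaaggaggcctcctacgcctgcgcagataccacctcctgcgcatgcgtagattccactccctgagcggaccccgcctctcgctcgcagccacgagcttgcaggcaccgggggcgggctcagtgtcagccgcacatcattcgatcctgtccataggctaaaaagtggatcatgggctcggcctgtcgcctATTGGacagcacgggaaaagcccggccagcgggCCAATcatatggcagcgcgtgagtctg
The Hmgcs1 window holds the sterol response core 137 bases before the start between CCAAT matches on the other strand. Mvd, which went the opposite way, has a pair of CCAAT matches 60 and 27 bases before its start, and Idi1 has a pair at 45 and 14 bases. These matches are descriptions of the letters and not of binding.

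Sterol movement inside the cell and uptake were covered by 2 tested genes. Stard4, a carrier that moves cholesterol between membranes and a known target of the synthesis factor, read 8.23, 8.47, 7.81 and 8.15 in Gr1lo arrays, against 7.87, 7.74, 7.35 and 7.46 in Gr1hi arrays. The third Gr1lo array fell below the first Gr1hi array, and the other 3 were above. The difference was 0.56 (SE 0.14, adjusted p = 0.0104), and its other 2 probe sets gave 0.60 and 0.63. Lrp1, a large receptor for remnant lipoproteins and protease complexes, averaged 11.24 ± 0.10 in Gr1lo and 11.16 ± 0.12 in Gr1hi (SD, n = 4 each). Its brightest probe set was not called (interval -0.10 to 0.25), while a dimmer one was, at 0.34 (adjusted p = 0.0185).

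The LXR and efflux genes all went 1 way, with 6 of 6 called higher in Gr1lo, a median difference of 0.57, and no overlap between subsets in any. Of all tested genes, 14.1% were called higher in Gr1lo, and 1693 of 11546 had every Gr1lo value above every Gr1hi value. All 6 LXR and efflux genes stayed called under the 20 alternative settings that were run. Nr1h3 (LXR alpha), the receptor of the group, read 8.06, 8.28, 7.76 and 8.26 in Gr1lo arrays, against 7.22, 7.19, 7.50 and 7.23 in Gr1hi arrays. The third arrays of the 2 subsets came closest to each other. The difference was 0.81 (95% interval 0.55 to 1.06, adjusted p = 0.000244).

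Among the exporters, Abca1 loads cholesterol onto lipid-poor apolipoprotein and read 8.20, 8.39, 8.76 and 8.52 in Gr1lo arrays and 7.83, 7.60, 7.74 and 8.08 in Gr1hi arrays. The subsets did not overlap, with the first Gr1lo array and Gr1hi array 4 nearest to each other. It differed by 0.66 (SE 0.13, adjusted p = 0.00173), and by 0.50 on its second tested probe set. Abcg1, which exports cholesterol to mature lipoprotein particles, read 10.32, 10.47, 10.65 and 10.53 in Gr1lo arrays and 10.12, 10.02, 10.09 and 10.10 in Gr1hi arrays. Gr1hi arrays were nearly level and every Gr1lo array was above them. The brightest Abcg1 probe set differed by 0.41 (SE 0.07, adjusted p = 0.00129), while the second differed by 0.08 and was not called.

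Apoe, the secreted acceptor of cellular cholesterol, read 13.54, 13.80, 13.42 and 13.38 in Gr1lo arrays, against 12.48, 12.71, 12.18 and 12.53 in Gr1hi arrays. The gap between the subsets was wider than the range within Gr1lo. With a difference of 1.06 (95% interval 0.80 to 1.32, adjusted p = 3.4e-05) it was the largest change among the 29 tested sterol genes. Mylip, a ubiquitin ligase that sends lipoprotein receptors to degradation, read 9.39, 9.31, 9.78 and 9.54 in Gr1lo arrays and 9.04, 8.87, 9.11 and 9.22 in Gr1hi arrays. Its ranges were close but apart, and the difference was 0.44 (SE 0.11, adjusted p = 0.0076). Lpcat3, an acyltransferase that makes membrane phospholipids more unsaturated, read 9.35, 9.47, 9.54 and 9.40 in Gr1lo arrays and 8.93, 8.90, 8.99 and 8.99 in Gr1hi arrays. Both subsets were tight around their means, and Lpcat3 differed by 0.49 (SE 0.06, adjusted p = 0.00011).

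The promoter windows of Abca1 at chr4:53159896-53160145 (minus strand) and Lpcat3 at chr6:124662854-124663103 (plus strand), from the LXR and efflux group, are given next. They differ in these letters, while both transcripts were higher in Gr1lo. Sites of LXR alpha itself were not searched for.
Abca1: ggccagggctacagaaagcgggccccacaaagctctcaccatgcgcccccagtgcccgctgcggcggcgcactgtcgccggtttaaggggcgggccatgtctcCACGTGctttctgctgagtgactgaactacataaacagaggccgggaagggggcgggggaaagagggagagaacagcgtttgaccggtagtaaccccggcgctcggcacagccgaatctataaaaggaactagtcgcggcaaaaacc
Lpcat3: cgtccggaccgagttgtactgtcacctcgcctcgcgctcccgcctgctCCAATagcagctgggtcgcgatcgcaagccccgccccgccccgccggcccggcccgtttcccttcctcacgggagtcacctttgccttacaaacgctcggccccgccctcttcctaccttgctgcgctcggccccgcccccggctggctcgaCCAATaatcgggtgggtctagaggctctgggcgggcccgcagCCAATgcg
Abca1 holds the E-box 147 bases before the start and no CCAAT, and Lpcat3 holds CCAAT 3 times and no E-box. No window was in the table for Abcg1, Sqle, Fdps, Fdft1 and Stard4.

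The gene lists around the 32 members differed in direction. Of 24 further genes of sterol trafficking, oxidation and receptor handling, 14 were tested, with a median difference of -0.25. Of these 14, 7 (50%) were called higher in Gr1hi and none higher in Gr1lo, where 18.5% and 14.1% of all genes were. The oxysterol-forming enzyme Cyp27a1 averaged 9.38 in Gr1lo and 10.36 in Gr1hi (1.98-fold), and the lysosomal sterol carrier Npc2 averaged 12.42 in Gr1lo and 13.38 in Gr1hi (1.95-fold). Of 12 further LXR partners and targets, 8 were tested and split. Of these 8, 2 (25%) were called higher in Gr1lo and 4 (50%) higher in Gr1hi, where 14.1% and 18.5% of all genes were. Toward Gr1lo were Pltp, a phospholipid transfer protein (10.96 in Gr1lo and 9.61 in Gr1hi, 2.54-fold), and Apoc2, the cofactor of lipoprotein lipase (11.79 in Gr1lo and 10.65 in Gr1hi, 2.21-fold). Toward Gr1hi were Lpl, that lipase (8.83 in Gr1lo and 11.08 in Gr1hi, 4.76-fold), and the receptor partner Rxra (8.17 in Gr1lo and 8.91 in Gr1hi, 1.67-fold).

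Fatty acid synthesis genes, targets of the Srebf1 and Srebf2 products, had 4 of 9 tested called higher in Gr1lo (44.4%, where 14.1% of all genes were) and none higher in Gr1hi, with a median difference of 0.02. The desaturase Scd2 averaged 9.62 in Gr1lo and 8.76 in Gr1hi (1.80-fold), and the fatty acid synthase Fasn 8.57 in Gr1lo and 8.12 in Gr1hi (1.36-fold). The branch that turns the same isoprene units into prenyl groups, dolichol and coenzyme Q had 1 of 10 tested called higher in Gr1lo and 2 higher in Gr1hi, with a median difference of -0.07. The 30% called is close to the 32.5% of all genes, so these counts show nothing about the branch. Coq2, a prenyltransferase of coenzyme Q synthesis, was 1.21-fold higher in Gr1lo, while the protein prenylation subunits Pggt1b and Fnta were 1.17-fold and 1.15-fold higher in Gr1hi. Their limma adjusted p-values were 0.025 for Coq2, 0.049 for Pggt1b and 0.022 for Fnta.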

How the data were processed

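Gene expression was measured on Affymetrix arrays, 1 per sample. The authors deposited 1 linear intensity per probe set and array, from 8.64 to 27145. GCRMA and MAS5 appear in the submitters' processing notes, and which of them made these values, and how arrays were scaled, is not given in the sources used here. Array medians were 80.6 to 83.1, so log2 intensities were used without a pseudocount or rescaling. A background correction can move dim genes most, and whether the long in vitro transcription altered ratios was not tested.

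Array controls (64 of 45101 probe sets) were left out, and a probe set was tested if it exceeded the median of the remaining values (intensity 81.9) in at least 4 of 8 arrays, which 22831 did. limma 3.58.1 in R 4.3.3 (lmFit, eBayes at default settings, equal weights, no block) gave two-sided tests, adjusted by Benjamini-Hochberg across every tested probe set, and was tested on simulated data. The labels name separate sorts, so p-values measure the spread between sorts. Intervals are at 95% and unadjusted. The number of arrays limits precision (median standard error 0.08). Each gene was represented by its brightest tested probe set with a single symbol. Every member is named, and of the other pathway lists up to 2 called genes per direction, by size of fold. Members, lists and motifs were chosen with earlier results of these data known, and 20 alternative settings were run.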

Additional observations from a re-analysis of the deposited data

Results flagged for a closer look

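In 58 sets of 4 arrays (29 tested sterol genes in each subset) 1 array stood far from its subset. The third Gr1hi array read 7.50 for Nr1h3, where the other Gr1hi arrays lay between 7.19 and 7.23. Chance alone gives about 1 in 20 such sets, and Nr1h3 was called higher in Gr1lo with that array left out.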

How the results depend on the processing

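Over 20 alternative settings for each of the 29 tested sterol genes, and 19 for Lss, 548 values kept their direction and their side of the threshold, 21 lost the call, 4 gained it and 6 turned sign. All 6 that turned belonged to genes not called: Mvk (-0.053 without Gr1hi replicate 2, -0.053 to 0.079 over single left-out arrays, and -0.020 with the mean of its probe sets), Dhcr7 (0.0096 without Gr1hi replicate 1, -0.13 to 0.0096 over single left-out arrays), Srebf1 (0.016 without Gr1hi replicate 1, -0.11 to 0.016 over single left-out arrays, and 0.012 without both arrays numbered 1) and Insig2 (0.017 without both arrays numbered 1). Hmgcs1 lost its call in 11 settings, Msmo1 and Hsd17b7 in 4 each, and Idi1 and Stard4 in 1 each. Leaving out 1 array at a time gave 5 to 9 called synthesis genes, 14 to 18 called sterol genes, 12 to 16 of them higher in Gr1lo, and 20 to 30 called sterol probe sets. Without both arrays numbered 1 there were 5 called synthesis genes and 18 called probe sets. At an adjusted p under 0.01 there were 4 called synthesis genes, 17 called probe sets and 0 called genes of transport and uptake. The causes were not tested, apart from the stricter threshold itself. Over all tested probe sets, arrays sharing a replicate number did not all deviate together (correlations of 0.27, 0.34, -0.03 and -0.10). The highest correlation of any pair was 0.55, between Gr1lo array 3 and Gr1hi array 4. Gr1lo array 4 correlated best with Gr1hi array 3 (0.30). A block by replicate number does not follow these crossed pairs. The averages of the synthesis enzymes, though, were higher in Gr1lo than in Gr1hi at each replicate number. With the replicate number as a block, 11 synthesis genes and 20 sterol genes were called, with Fdps, Fdft1 and Nsdhl added toward Gr1lo. In all, 7164 probe sets were called, against 7108 without the block. With the block, limma adjusted p was lower for Sqle (0.00011), Idi1 (0.00014), Cyp51 (9.8e-05) and Hmgcs1 (0.0035). It was higher for Hsd17b7 (0.024) and Ebp (0.0050). With no filter on dim probe sets, 3 sterol genes were called higher in Gr1hi, Tm7sf2 being the added one, and 5 synthesis genes higher in Gr1lo, Hmgcs1 being lost (adjusted p = 0.069) as more probe sets were tested. Of the 61 sterol probe sets, 13 were too dim for the filter.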
